A study of Mus musculus with 9 samples.

Results

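Foxa1, Foxa2, Sox9, Sox2, Trp63 and Klf5 are 6 genes for transcription factors of the epithelium that lines the urogenital sinus and its prostatic buds. They are 6 of the 18193 genes with a probe set of their own. All probe sets that the platform annotation assigns to 1 of these symbols alone were taken, which gave 13 of the 45101 probe sets in the table. Foxa1, Foxa2 and Sox2 had 1 probe set each, Sox9 and Klf5 had 3 each, and Trp63 had 4, numbered below from the brightest (probe set 1) to the dimmest. Of the 13, 10 reached the mean level required for testing, a normalised signal of 41.2, and 3 (1 each of Sox9, Trp63 and Klf5) did not.

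The arrays held RNA from the urogenital sinus of C57BL/6 mice whose mothers were exposed from embryonic day 13 to 16. The groups were BPA (bisphenol A, a weakly estrogenic chemical used in plastics, 20 μg/kg/day), diethylstilbestrol (DES, a synthetic estrogen, 0.2 μg/kg/day) and Control, whose mothers received the vehicle. Both agents were dissolved in corn oil stripped of tocopherol, per the labels' protocols. The urogenital tracts of males and females were dissected, and bladder, urethra and the Wolffian and Müllerian ducts with the seminal vesicle were taken away. Each agent was measured on 3 arrays, 1 each from fetuses of embryonic days 17 and 18 (E17 and E18) and from newborns (P0). No genetic alteration is named in the labels for any group. The labels give neither the number of animals or litters behind an array nor the sexes on it, so the p-values rest on array-to-array spread alone, part of which may be technical. With 1 array per agent and age, no agent was repeated at an age. In the comparisons of agents or of ages, a change with age that differs between agents therefore counts as spread and raises the p-values.

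The urogenital sinus epithelium sends solid buds into the surrounding mesenchyme around birth, and in males these buds become the prostate. FOXA1 and FOXA2 are forkhead pioneer factors that open chromatin, and in prostate and breast cells FOXA1 guides the androgen and estrogen receptors to their sites. SOX9 and SOX2 carry a DNA-binding domain of the HMG type. SOX9 is needed in mouse for outgrowth of the prostatic buds and also drives cartilage and Sertoli cell fate. SOX2 is best known as a factor of stem and progenitor cells, neural ones among them. TRP63 (p63) is the master factor of basal and stratified epithelium, and mice without it form no prostate. KLF5 is a zinc-finger factor of proliferating epithelium, and in mouse it is needed for urothelial maturation.

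Promoter windows were taken from RefSeq (build GRCm38.p6), which held 5 windows for 3 of the 6 genes: 1 for Foxa1, 3 for Foxa2 and 1 for Sox2. Each covers 250 bases before and 50 after an annotated start, read 5′ to 3′ along the gene. They are shown because the exposures were estrogens and because several of the 6 genes encode factors whose typical binding letters can be looked for in the windows. Capitals mark matches on either strand to the forkhead letters TGTTTAC or the Sox letters ACAAAG. The third Foxa2 window, counted from the most upstream start, is printed.
Foxa1, chr12:57546062-57546361, minus strand: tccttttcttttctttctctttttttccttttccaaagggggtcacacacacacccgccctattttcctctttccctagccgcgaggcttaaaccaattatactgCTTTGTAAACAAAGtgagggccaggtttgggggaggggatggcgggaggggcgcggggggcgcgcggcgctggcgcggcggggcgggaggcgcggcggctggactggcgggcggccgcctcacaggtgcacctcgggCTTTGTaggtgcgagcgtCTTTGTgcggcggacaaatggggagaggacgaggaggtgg
Foxa2, chr2:148045415-148045714, minus strand: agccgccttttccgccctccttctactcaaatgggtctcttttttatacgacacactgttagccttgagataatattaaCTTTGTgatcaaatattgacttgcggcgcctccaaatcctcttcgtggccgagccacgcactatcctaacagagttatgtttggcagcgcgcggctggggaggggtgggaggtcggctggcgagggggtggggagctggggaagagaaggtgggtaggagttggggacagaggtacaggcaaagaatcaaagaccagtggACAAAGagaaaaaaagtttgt
Sox2, chr3:34649745-34650044, plus strand: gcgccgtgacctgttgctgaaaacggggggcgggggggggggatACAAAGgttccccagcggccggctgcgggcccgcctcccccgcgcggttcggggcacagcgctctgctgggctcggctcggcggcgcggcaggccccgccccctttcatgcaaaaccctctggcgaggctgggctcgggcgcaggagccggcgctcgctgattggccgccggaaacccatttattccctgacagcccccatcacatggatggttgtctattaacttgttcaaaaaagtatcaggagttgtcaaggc

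The Foxa1 window held 1 forkhead match, at bases 110 to 116 from its 5′ end, and 4 Sox matches. The forkhead match shares bases with the Sox matches at 106 to 111 and at 114 to 119. The printed Foxa2 window held 2 Sox matches, the Sox2 window 1, and neither held the forkhead letters. The other Foxa2 windows, at chr2:148046920-148047219 and chr2:148045899-148046198, held neither motif. Among 32851 windows of this length in the table, 3.65% held the forkhead letters and 18.7% the Sox letters. The full estrogen response element, GGTCA and TGACC separated by any 3 letters, was searched on both strands and was in 0 of the 5 windows and in 0.07% of all windows. A match is a description of letters and does not show that a factor binds there.

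The labelled tissue was checked against markers of epithelium and of the mesenchyme that surrounds it. All 18 epithelium markers with a probe set (of 19 listed), Cdh1, Epcam and Krt8 among them, read at or above the filter level of 41.2 on every array, and so did all 12 mesenchyme markers. The summed signal of the epithelium markers was 16772 to 19655 on the BPA arrays, 15933 to 17475 on the DES arrays and 15186 to 16417 on the Control arrays. The BPA sums therefore lay above the Control sums, and this stands beside every comparison of BPA with Control below. The mean log2 deviation of the same markers, which weights each gene equally, overlapped, at -0.014 to 0.15 on the BPA arrays and -0.13 to -0.012 on the Control arrays. In bulk tissue, fewer epithelial cells and less RNA per cell cannot be told apart. The 13 gonad markers with a probe set summed to 5317 on the BPA P0 array and to 766 to 941 on the others. The 15 epidermis markers summed to 26670 on BPA P0 and 9999 on BPA E18, against 1798 to 3189 on the others. The 10 hindgut markers with a probe set summed to 977 on BPA E17 and 271 to 450.4 on the others, with Cdx1, Cdx2 and Cdh17 below the filter level on all 9. The 9 smooth muscle markers summed to 35201 to 38488 on the BPA arrays, 28023 to 31521 on the DES arrays, and 35807 on Control E17, 21717 on Control E18 and 23257 on Control P0. The 10 skeletal muscle markers summed to 10719 on BPA E17 and 11549 to 15573 on the others. Their mean log2 deviation was -0.98 on BPA E17 and -0.22 to 0.53 on the others. Ckm and Acta1 went the other way and were highest on BPA E17, at 1040 and 7771. The part of these signals in the results below was not tested. All comparisons of groups and ages were also run with both of these BPA arrays left out. Before scaling, the mean deposited signal after trimming 2% at each end was 157 on BPA P0 and 235 to 277 on the other 8 arrays.

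**Figure D1:**
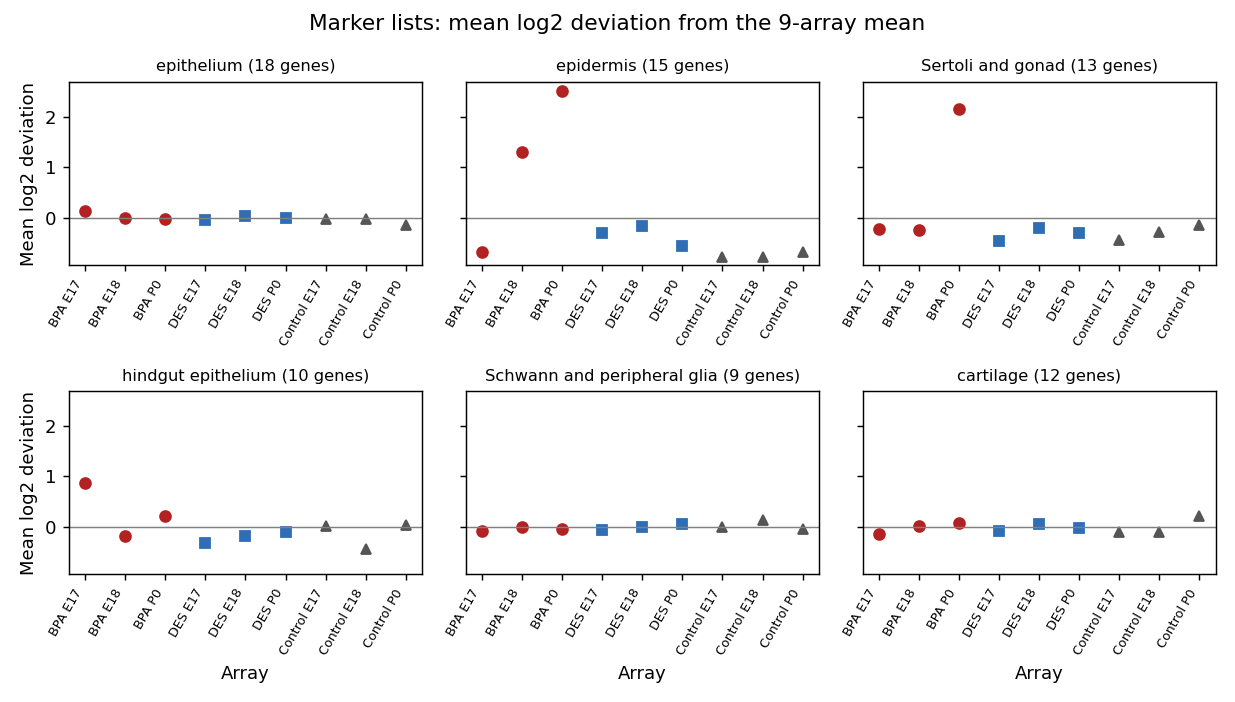
Mean log2 deviation of each marker list from its own 9-array mean (vertical axis, log2 units) on each array (horizontal axis: BPA in red circles, DES in blue squares, Control in grey triangles; 1 point is 1 array). Epidermis and gonad markers stand far above the rest on BPA P0 (2.51 and 2.15), while epithelium markers stay between -0.13 and 0.15 on all 9 arrays.

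None of the 6 genes changed past the threshold in any comparison. Between BPA and Control, 0 of the 10 tested probe sets passed an adjusted p of 0.05 in limma, as did 0% of the 26999 probe sets tested (smallest member adjusted p = 0.654). At an unadjusted p under 0.05 the counts were 0 of 10 members and 7.84% of all. Between DES and Control they were again 0 of 10 and 0% (smallest member adjusted p = 0.856), with 0 of 10 and 5.63% at an unadjusted p under 0.05. BPA and DES were given at different doses and share the Control arrays, so their values are set side by side without a test between them. Between P0 and E17, 0 of 10 members passed, against 0.0926% of all (25 probe sets, 24 of them higher at P0). That background of 25 moved with single arrays, to 1601 without DES P0 and to 0 without Control E17 or without DES E17, with 0 members passing each time.

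**Figure D2:**
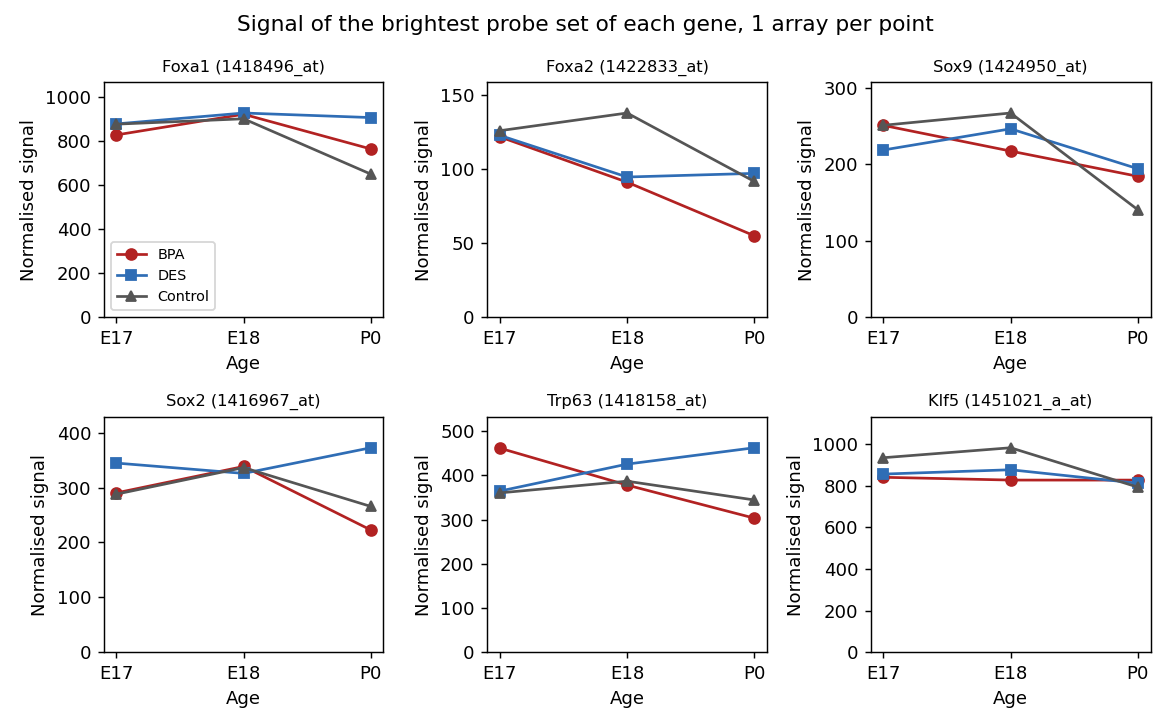
Normalised signal (vertical axis, linear, from 0) of the brightest probe set of each gene at E17, E18 and P0 (horizontal axis), with BPA in red circles, DES in blue squares and Control in grey triangles; each point is 1 array, so there are no error bars. Foxa2 reads 55.0 on the BPA P0 array, Foxa1 is lowest on Control P0 at 651, and Klf5 stays between 793 and 982.

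Foxa1, the forkhead factor that works with steroid receptors, did not pass the test under either exposure. Its signal was 829, 923 and 766 on the BPA arrays at E17, E18 and P0, 879, 929 and 908 on the DES arrays, and 878, 903 and 651 on the Control arrays. The Control P0 array was the lowest of the 9, and the 3 groups overlapped. The log2 difference was 0.061 ± 0.11 (SE) between BPA and Control, with a 95% interval of -0.18 to 0.30, and 0.17 ± 0.11 between DES and Control, with an interval of -0.07 to 0.41 (limma adjusted p = 0.929 and 0.856). DES was above Control at all 3 ages, by 0.0019, 0.041 and 0.48 log2 units. The fitted DES difference of Foxa1 was 0.054 without the Control P0 array and 0.064 without DES P0. By age, Foxa1 averaged 862 ± 28.6 at E17, 918 ± 13.8 at E18 and 775 ± 129 at P0 (SD, n = 3 arrays). The difference between P0 and E18 was -0.26 ± 0.11 (adjusted p = 0.349), and by agent it was -0.27 on the BPA arrays, -0.032 on the DES arrays and -0.47 on the Control arrays. Without Control P0 the Foxa1 difference was -0.14.

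Foxa2, the second forkhead factor, known in mouse from the early prostatic buds, had the widest spread among the brightest probe sets of the 6 genes. It read 122, 91.1 and 55.0 on the BPA arrays at E17, E18 and P0, 123, 94.5 and 97.0 on the DES arrays, and 126, 138 and 91.6 on the Control arrays. The 3 E17 arrays lay close together, from 122 to 126, and the later arrays ran from 55.0 to 138. Foxa2 averaged 89.2 ± 33.3 on the BPA arrays, 105 ± 15.5 on the DES arrays and 118 ± 23.9 on the Control arrays (SD, n = 3). The log2 difference between BPA and Control was -0.43 ± 0.20, with a 95% interval of -0.88 to 0.015 and an adjusted p of 0.654 in limma. At E17 the BPA array was -0.047 log2 units from Control, at E18 -0.57 and at P0 -0.68, each from 1 array against 1, so without a test. Without the BPA P0 array, which carried the gonad and epidermis signal, the fitted Foxa2 difference was -0.25 (adjusted p = 0.849), and without BPA E18 as well it was -0.11. A linear change of this difference with age did not pass either (-0.32 ± 0.22 per age step, adjusted p = 0.752). Between DES and Control the difference was -0.16 ± 0.20 (adjusted p = 0.925).

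Foxa2 had the largest fitted log2 difference of the members between P0 and E17, a rank that rests on the BPA P0 array. Its mean was 81.2 ± 22.8 at P0 and 123 ± 2.18 at E17 (SD, n = 3 arrays), every P0 array being below every E17 array. The log2 difference was -0.61 ± 0.20, below 0 within each agent at -1.07 for BPA, -0.32 for DES and -0.44 for Control. It did not pass the threshold (limma adjusted p = 0.190; 95% interval -1.06 to -0.16; unadjusted p = 0.0127). Foxa2 relative to the mean of the epithelium markers on each array, an alternative chosen after seeing the data, differed by -0.53 (adjusted p = 0.225). Without the BPA P0 array the Foxa2 difference was -0.43 (adjusted p = 0.434) and that of Sox9 probe set 1 was -0.54. Age accounted for 51.2% of the sum of squares of Foxa2 between arrays, agent for 25.6% and the residual for 23.3%, against medians over all tested probe sets of 27.5%, 21.9% and 41.7%.

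Sox9, the HMG-box factor of bud outgrowth, gave different pictures through its probe sets. Probe set 1 read 251, 217 and 184 on the BPA arrays at E17, E18 and P0, 219, 246 and 194 on the DES arrays, and 251, 267 and 141 on the Control arrays. Every P0 array was below every prenatal array. The difference between P0 and E17 was -0.47 ± 0.16 log2 units and that between P0 and E18 was -0.49 ± 0.16 (limma adjusted p = 0.198 and 0.283). Without the Control P0 array, the lowest for this probe set, the Sox9 differences were -0.28 and -0.30. Probe set 2 read 139, 159 and 176 on the BPA arrays, 126, 178 and 163 on the DES arrays, and 184, 179 and 118 on the Control arrays. It was higher at P0 than at E17 on the BPA and DES arrays and lower on the Control arrays, so its fitted difference was 0.020 ± 0.20 (adjusted p = 0.973). Across the 9 arrays the probe sets correlated at r = 0.56, on values that share the same RNA and scaling. Both probe sets were lowest on Control P0. Probe set 3 read 1.22 to 14.3 and was not tested.

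Exposure differences of Sox9 were small in both probe sets when averaged over age. For probe set 1 they were 0.028 ± 0.16 between BPA and Control and 0.048 ± 0.16 between DES and Control, and for probe set 2 0.0016 ± 0.20 and -0.026 ± 0.20 (limma adjusted p = 0.974 to 0.999). For probe set 2, DES minus Control, the 95% interval ran from -0.47 to 0.42 log2 units. Within single ages probe set 2 lay below Control at E17 (-0.39 for BPA and -0.52 for DES) and above it at P0 (0.56 for BPA and 0.45 for DES). The change of its difference per age step was 0.48 ± 0.20 for BPA and 0.49 ± 0.20 for DES, and neither passed (adjusted p = 0.597 and 0.766; unadjusted p = 0.038 and 0.0345, where 8.08% and 6.36% of all probe sets were under 0.05). Both use the same Control arrays. Without Control P0 the Sox9 values were 0.20 for BPA and 0.21 for DES, and without Control E17 they were 0.75 and 0.77. For DES the value was also 0.18 without DES E17 and 0.79 without DES P0. Without the BPA P0 array the value for BPA was 0.50. Markers of other cells that use Sox9 were read beside it. Of the gonad markers, Amh, the Sertoli cell hormone, read 296 on BPA P0 and 3.33 to 8.10 on the other arrays. Not all gonad markers rose there: Star read 101 on BPA P0 and 37.6 to 121 on the others. Cyp11a1 and Tex101 were below the filter level on all 9. The 12 cartilage markers summed to 1206 to 1312 on the BPA arrays, 1203 to 1378 on the DES arrays and 1249 to 1409 on the Control arrays, with Matn1 below the filter level on all 9. Their part in the Sox9 signal was not tested.

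Sox2, the progenitor factor, was highest on the DES P0 array and lowest on the BPA P0 array. It read 290.3, 338 and 223 on the BPA arrays at E17, E18 and P0, 345, 326 and 372 on the DES arrays, and 288, 336 and 266 on the Control arrays. BPA and Control were nearly superimposed before birth, and the groups overlapped. The log2 difference between DES and Control was 0.23 ± 0.15, with a 95% interval of -0.11 to 0.57, and that between BPA and Control was -0.076 ± 0.15, with an interval of -0.41 to 0.26 (limma adjusted p = 0.856 and 0.937). The DES difference of Sox2 was 0.062 without the DES P0 array and 0.39 without DES E18. With age, P0 minus E17 was -0.13 ± 0.15 (adjusted p = 0.705), the sign being positive on the DES arrays (0.11) and negative on the BPA and Control arrays (-0.37 and -0.11). Sox2 is also a gene of peripheral glia. The 9 glial markers summed to 3205 to 3443 on the BPA arrays, 3414 to 3742 on the DES arrays and 3226 to 4101 on the Control arrays, and all 9 read above the filter level on every array. Their part in the Sox2 signal was not tested.

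Trp63, the basal cell factor, had opposite orders of signal with age on the BPA and DES arrays in its brightest probe set, without passing the test. Probe set 1 read 461, 378 and 303 on the BPA arrays at E17, E18 and P0, 364, 425 and 462 on the DES arrays, and 360.3, 387 and 344 on the Control arrays. Each later BPA array was lower and each later DES array higher, with the Control arrays varying least. The log2 difference over all ages was 0.046 ± 0.16 between BPA and Control and 0.19 ± 0.16 between DES and Control (limma adjusted p = 0.967 and 0.879). Relative to Control the change per age step was -0.27 ± 0.13 for BPA and 0.20 ± 0.13 for DES, and neither passed (adjusted p = 0.640 and 0.815). Without Control E17 the Trp63 values were -0.13 for BPA and 0.33 for DES, and without Control P0 they were -0.40 and 0.068. On the BPA P0 array, which had the highest epidermis signal (Krt1 5294 and Krt10 6327, against 73.3 to 1201 and 233 to 1253 on the other arrays), Trp63 was the lowest of the 9. Krt2, a late epidermal keratin, was below the filter level on all arrays.

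The dimmer Trp63 probe sets did not follow the brightest one. Probe set 2 read 55.3, 74.3 and 30.2 on the BPA arrays, 41.0, 16.2 and 77.7 on the DES arrays, and 78.3, 47.1 and 43.8 on the Control arrays. Its 95% interval for BPA minus Control ran from -1.16 to 0.94, so it bounds little. Probe set 3 read 26.8 to 59.5, and both were lowest on the DES E18 array. Their correlations with probe set 1 over the 9 arrays were r = 0.18 and 0.040. Probe set 4 read 6.30 to 23.7 and was not tested. p63 is made as long and short isoforms from separate promoters, and the annotation used here does not say which of them each probe set detects.

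Klf5, the factor of proliferating epithelium, had the smallest spread of the 6 in its brightest probe set (SD of log2 0.099), while probe set 2 (0.19) varied more than Foxa1 (0.17). Probe set 1 read 840.0, 827 and 827 on the BPA arrays at E17, E18 and P0, 855, 876 and 811 on the DES arrays, and 934, 982 and 793 on the Control arrays. Before birth both Control arrays were above all BPA and DES arrays, and at P0 Control was the lowest of the 3. The log2 difference was -0.11 ± 0.091 between BPA and Control (95% interval -0.32 to 0.091) and -0.085 ± 0.091 between DES and Control (-0.29 to 0.12), with limma adjusted p = 0.810 and 0.904. The P0 arrays lay below all prenatal arrays, by -0.11 ± 0.091 against E17 (adjusted p = 0.559), but BPA P0 and BPA E18 were nearly tied, at 826.519 and 826.616. Probe set 2 read 130.3, 126 and 118 on the BPA arrays, 164, 117 and 106 on the DES arrays, and 158, 125 and 135 on the Control arrays. Its difference between P0 and E17 was -0.32 ± 0.16 (adjusted p = 0.330), with the E18 arrays already below all E17 arrays. Probe set 3 read 2.94 to 23.7 and was not tested.

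**Figure D3:**
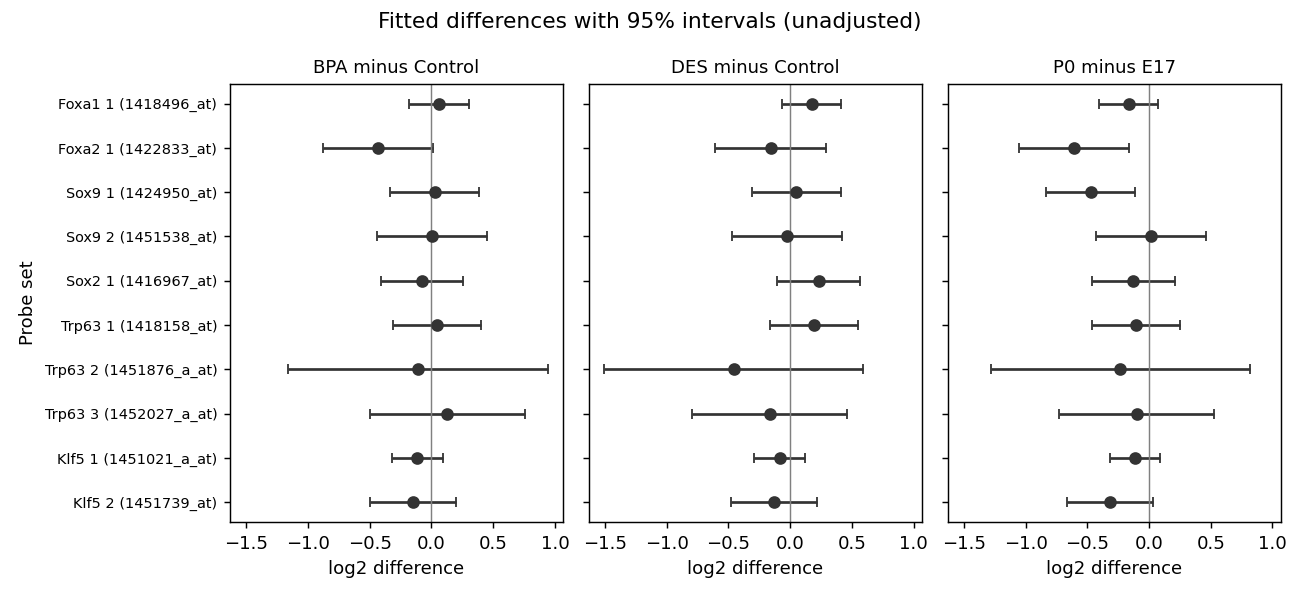
Fitted log2 differences (horizontal axis) with 95% intervals that are not adjusted for multiple testing (bars) for the 10 tested probe sets (rows) in 3 comparisons (panels). The intervals of Foxa2 and of Sox9 probe set 1 lie below 0 for P0 minus E17, at adjusted p = 0.190 and 0.198, and all intervals for BPA and DES minus Control include 0.

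Counted over members, most differences with age lay below 0. Between P0 and E17, 9 of 10 tested probe sets had a negative difference, with a median of -0.15, where 51.1% of all tested probe sets were below 0 (median -0.0063). The exception was Sox9 probe set 2. Without the BPA P0 array 6 of 10 were below 0, with Sox2 and the 3 Trp63 probe sets above 0 and Sox9 probe set 2 below. Of the 10, 2 had an unadjusted p under 0.05, against 17.3% of all, which is near the background. In 3 (Foxa2, Sox9 probe set 1 and Klf5 probe set 1) every P0 array was below every E17 array, against 9.92% of all in that direction, and 0 of 10 were higher without overlap, against 9.94%. Between P0 and E18 the count was 8 of 10 below 0 (median -0.16; 51.2% of all below 0), with 2 at an unadjusted p under 0.05 against 13.5%. Here 2 had no overlap, Sox9 probe set 1 and, through the near tie of BPA P0 with BPA E18, Klf5 probe set 1, against 7.34% of all, and 0 were higher without overlap, against 6.99%. Between E18 and E17, 4 of 10 were below 0 (median 0.015; 49.7% of all below 0), and 0 had an unadjusted p under 0.05, against 2.75%. Foxa1 was higher without overlap (5.17% of all) and Klf5 probe set 2 lower (4.26% of all), both with limma adjusted p = 1. For BPA 5 of 10 and for DES 6 of 10 were below Control (medians -0.037 and -0.056; 51.0% and 49.2% of all), and 0 of 10 had groups that did not overlap, against 5.05% higher and 5.26% lower for BPA and 5.87% and 5.04% for DES. Relative to the epithelium markers 9 of 10 were below Control for BPA, all but Trp63 probe set 3, with 0 passing. The 4 signs that turned were those of Foxa1, Sox9 probe sets 1 and 2, and Trp63 probe set 1. On that scaling the median of all probe sets was also lower, at -0.10, and 5 of the 26999 passed. The share of all below 0 was not counted on it. For the change of the exposure difference per age step, 5 of 10 were below 0 for BPA (49.7% of all), with 0 passing. For DES it was 1 of 10 (49.6% of all), with 0 passing, and all 10 share the same 3 Control arrays. Without Control P0, Foxa1, Foxa2, Sox2, Sox9 probe set 1, Trp63 probe set 3 and Klf5 probe set 1 were below 0 for DES. The rest were above 0, among them Klf5 probe set 2, the exception with all arrays.

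The spread of the members lay across the range of all tested probe sets. The SD of log2 signal over the 9 arrays was 0.099 for Klf5, 0.17 for Foxa1, 0.20 for Trp63, 0.23 for Sox2, 0.28 for Sox9 and 0.37 for Foxa2, taking the brightest probe set of each, with a median of 0.21 over all tested probe sets. Klf5 thus stood at the 8.59th percentile of spread and Foxa2 at the 86.7th. The ratio of highest to lowest array was 1.24 for Klf5 and 2.5 for Foxa2. Agent took 0.535% of the sum of squares of Sox9 probe set 1 and 37.3% of that of Sox2.

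**Figure D4:**
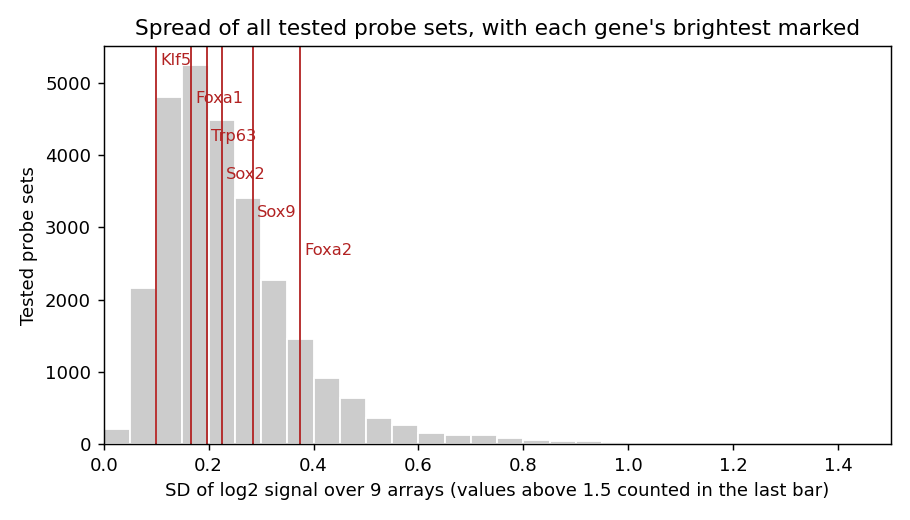
Number of tested probe sets (vertical axis) by SD of log2 signal over the 9 arrays (horizontal axis, log2 units), with the brightest probe set of each of the 6 genes marked by a red line. The lines run from Klf5 at 0.099 to Foxa2 at 0.37, across the bulk of the distribution, whose median is 0.21.

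Among themselves the 6 genes varied together to different degrees. Over the 9 arrays, which share RNA, scaling and age, Pearson's r was 0.80 between Foxa1 and Sox9, 0.77 between Sox9 and Klf5, 0.72 between Foxa1 and Sox2 and 0.68 between Sox2 and Trp63. It was 0.39 between Foxa1 and Foxa2, and 0.021 between Trp63 and Klf5. All 15 pairs were above 0. The low P0 signals of the Control and BPA arrays recur in most of these genes: Foxa1, Sox9 and Klf5 were lowest on Control P0, and Foxa2, Sox2 and Trp63 on BPA P0.

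**Figure D5:**
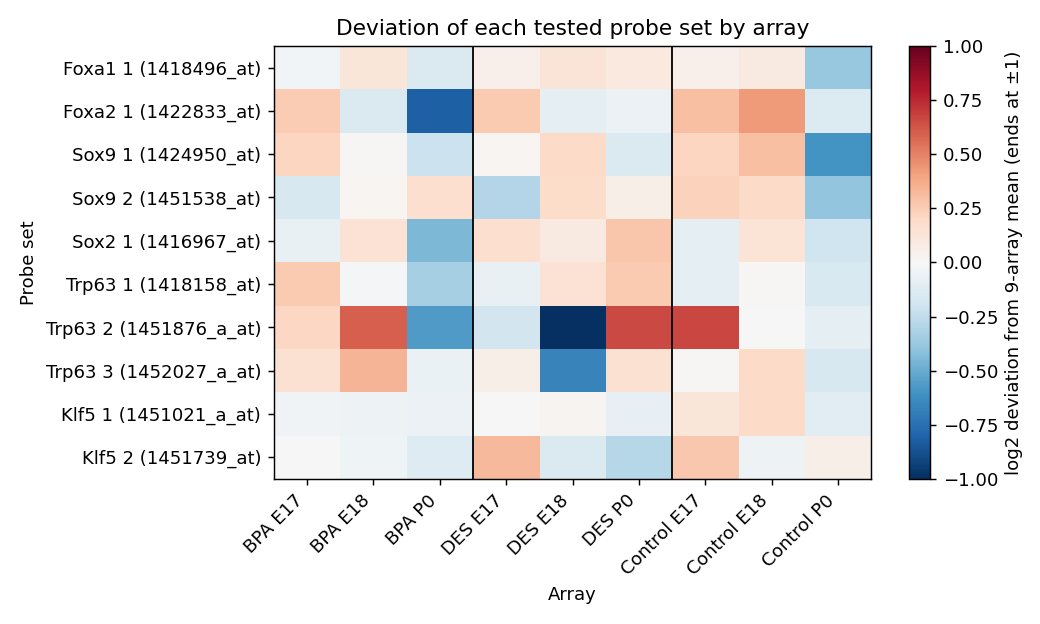
Log2 deviation of each of the 10 tested probe sets (rows) from its own 9-array mean on each array (columns, grouped as BPA, DES and Control), in red above and blue below the mean. The Control P0 column is blue for Foxa1 and for both Sox9 probe sets, the BPA P0 column for Foxa2, Sox2 and Trp63, and the dim probe set Trp63 probe set 2 swings most.

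By the rule of highest Pearson's r over the 9 arrays among 13398 other genes, each with 1 probe set, the genes most like each factor were as follows. Foxa1 was followed most closely by Zfp930, Tmtc4 and Acad11 (r = 0.98 each). Foxa2 was followed by Lyst, Isl1 and Sbno1 (0.98, 0.97 and 0.96). Sox9 was followed by Zfyve16 and Fkbp4 (0.96 each) and Shh (0.96), the hedgehog ligand of the sinus epithelium. Sox2 was followed by Cetn2, Rab40b and Wdtc1 (0.96 each). Trp63 was followed by Pparg (0.96), the nuclear receptor of urothelium and fat, Car8 (0.95) and Tmem88 (0.93). Klf5 was followed by Sytl4, Pcgf6 (0.94 each) and Copz1 (0.93). With so many genes searched over so few arrays, values of this size describe likeness of pattern in these arrays and carry no test.

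Relatives of the 6 factors did not pass either. Of 23 listed relatives (other Foxa, Sox, p53-family and Klf genes), 19 were tested, and 10 were above and 9 below Control after BPA, with a median of 0.0045 and 0 passing in limma. The largest differences were those of Trp73, a p53-family gene (0.51 ± 0.24, adjusted p = 0.654), Sox18, an endothelial Sox gene (0.37 ± 0.19, adjusted p = 0.695), and Klf13 (-0.37 ± 0.12, adjusted p = 0.496). After DES 8 were above and 11 below, 0 passing, with Klf9, a hormone-responsive Klf gene, at -0.40 ± 0.13 (adjusted p = 0.843). Klf13 read 401, 309 and 265 on the BPA arrays at E17, E18 and P0, 418, 447 and 363 on the DES arrays, and 449, 440 and 361 on the Control arrays. Between P0 and E17, 10 relatives were above 0 and 9 below (median 0.054), with Trp73 at 0.52 ± 0.24, Klf13 at -0.37 ± 0.12 and Sox21 at 0.31 ± 0.21 (adjusted p = 0.293, 0.190 and 0.478).

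Of 25 other transcription factors of epithelium and prostate, 20 were tested and 0 passed in any of the 5 comparisons of groups or ages. After BPA 9 were above Control and 11 below (median -0.079), and after DES 10 were above and 10 below (median 0.0049). Between P0 and E17, 13 of 20 were below 0, with a median of -0.21 where that of all probe sets was -0.0063. The largest differences were in ETS-family factors of epithelium: Elf5 (-0.56 ± 0.19), Ehf (-0.50 ± 0.18) and Elf3 (-0.40 ± 0.15), with limma adjusted p = 0.196 to 0.222. Elf5 read 108, 113 and 74.7 on the BPA arrays at E17, E18 and P0, 146, 116 and 124 on the DES arrays, and 155, 118 and 76.8 on the Control arrays. The P0 signal of Elf5 was higher on the DES array than on the others, as were those of Ehf and Elf3. So it was for Foxa1, Foxa2, Sox9 probe set 1, Sox2 and the tested Trp63 probe sets. It was not for Sox9 probe set 2 or the tested Klf5 probe sets. Each of these P0 values is from 1 array, and the share of all probe sets with this order was not counted.

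Basal epithelial genes linked to p63 were 22, of which 19 were tested and 0 passed in any of these comparisons. After BPA 13 were above Control and 6 below (median 0.035), and after DES likewise 13 and 6 (median 0.065). Sfn, the 14-3-3 sigma gene of stratified epithelium, read 262, 245 and 188 on the BPA arrays at E17, E18 and P0, 215, 159 and 153 on the DES arrays, and 135, 131 and 121 on the Control arrays. All BPA and all DES arrays were above all Control arrays, where 5.05% and 5.87% of all probe sets were. The differences of Sfn were 0.81 ± 0.14 and 0.42 ± 0.14 log2 units (limma adjusted p = 0.329 and 0.843). For DES the difference of Dsc3 was larger, at 0.85 ± 0.43 (limma adjusted p = 0.851). Dsc3 read 159 on DES E17 and 27.7 to 88.5 on the other arrays. Pkp1 had 0.57 ± 0.29 for BPA (limma adjusted p = 0.687) and read 563 on BPA P0 and 168 to 364 on the others. Krt5, the basal keratin, read 1106, 950.2 and 718 on the BPA arrays, 1008, 1084 and 954 on the DES arrays, and 974, 986 and 575 on the Control arrays. Its difference between P0 and E17 was -0.48 ± 0.13 (adjusted p = 0.148), with the DES P0 array again the highest at P0. In this comparison 9 genes of the list were above 0 and 10 below (median -0.025), and the next largest differences were positive, 0.46 ± 0.13 for Lamb3, a laminin chain of the basement membrane, and 0.40 ± 0.19 for Krt14, a basal keratin (adjusted p = 0.163 and 0.319).

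Of 22 luminal and urothelial genes of the kind that Foxa factors and Klf5 are known to regulate, 21 were tested and 0 passed. After BPA 18 were above Control and 3 below, with a median of 0.30 log2 units where that of all probe sets was -0.0043, and 9 of 21 had an unadjusted p under 0.05, against 7.84% of all probe sets. After DES 16 were above and 5 below (median 0.13), and 4 of 21 had an unadjusted p under 0.05, against 5.63% of all. These shares are no test of the list, which was chosen with earlier results of these data known. Its genes also share the same arrays. Upk3a, a uroplakin of the urothelial surface, read 1860.5, 1471 and 1263 on the BPA arrays at E17, E18 and P0, 1227, 1459 and 1472 on the DES arrays, and 1016, 901 and 1025 on the Control arrays. All exposed arrays were above all Control arrays, where 5.05% of all probe sets were for BPA and 5.87% for DES. The differences of Upk3a were 0.62 ± 0.14 for BPA and 0.49 ± 0.14 for DES (limma adjusted p = 0.380 and 0.843). Tff3, a secreted mucosal peptide, had 0.88 ± 0.27 and 0.67 ± 0.27 (adjusted p = 0.468 and 0.843). Tff3 read 105, 100 and 117 on the BPA arrays, 126, 87.1 and 71.7 on the DES arrays, and 110, 41.4 and 37.2 on the Control arrays. At E17 the BPA array was thus below Control, and on the BPA arrays Tff3 was higher at P0 than at E17. The second largest DES difference of the list was negative, that of the keratin gene Krt23 at -0.51 ± 0.31 (adjusted p = 0.856). In the same BPA arrays the differences from Control were 0.061 for Foxa1, -0.43 for Foxa2 and -0.11 for Klf5 probe set 1. The summed epithelium and smooth muscle markers were also higher on the BPA arrays than on most Control arrays, as given above, and their part in these differences was not tested. Between P0 and E17, 9 of the 21 were above 0 and 12 below (median -0.094), where 51.1% of all probe sets were below 0. The largest differences were those of Tff3 at -0.69 ± 0.27 (limma adjusted p = 0.246) and Shh at -0.50 ± 0.11 (adjusted p = 0.109).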

How the data were processed

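The authors deposited linear intensities per probe set for 9 Affymetrix arrays. Per the submitters' processing notes MAS5 made them. Its version and target level are not given in the sources used here. Array levels differed, so the intensities were quantile normalised and taken to log2 after adding 5.46, their 10th percentile. Differences of dim probe sets are therefore understated. Gene symbols came from the platform annotation. A mean log2 signal of 5.54 (40th percentile) was required, which left 26999 non-control probe sets of 45101 to test with limma 3.58.1 in R 4.3.3 (age and agent as factors, eBayes with trend, 4 residual and 5.77 prior degrees of freedom). P-values were adjusted by Benjamini-Hochberg over all of them, with a threshold of 0.05. Age trends used an agent by linear age term, with 3 residual degrees of freedom. The fit was run on simulated data with shifts planted on the BPA arrays, independent noise and no age effect. The planted shifts were larger than any fitted difference of the members, so smaller ones were not examined. Genes outside the 6 were represented by their brightest probe set. In each list the genes past the threshold, otherwise up to 3 of the largest differences, were named. The number of arrays limits the precision. Members and lists were chosen with earlier results of these data known. Alternatives covered scaling, pseudocount, filter, features, variance model, factors and arrays.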

Additional observations from a re-analysis of the deposited data

How the results depend on the processing

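The count of 0 member probe sets past the threshold held in all 5 comparisons under each of 22 alternatives, and for both agent by age terms under 19, which include leaving out each array in turn. The agent by age terms were not fitted without the other factor, without BPA E18 and P0, or without BPA P0 and DES E17. The lowest member adjusted p anywhere was 0.0628 (Foxa2, P0 minus E17, without the DES P0 array). Of 1431 recomputed differences, 118 changed sign, and 0 of those were past the threshold before or after. Foxa2 kept its sign in 21 of 21 alternatives for BPA minus Control (-0.63 to -0.11) and for P0 minus E17 (-0.87 to -0.38). The tested Klf5 probe sets also kept theirs in both comparisons, as did Foxa1 and Sox9 probe set 1 for P0 minus E17. Sox9 probe set 2 changed sign in 8 of 21 for P0 minus E17. The alternatives reuse the same arrays, and probe sets left out of an alternative have fewer than 22. Without normalisation, the deposited values gave an all-probe-set median of -0.24 for BPA minus Control, -0.29 for P0 minus E17, -0.17 for P0 minus E18 and -0.12 for E18 minus E17. Over all probe sets the count for P0 minus E17 ran from 0 to 1601 (25 as reported), the highest without the DES P0 array, where P0 minus E18 gave 657 (0 as reported). It was 392 with deposited values, 83 with 1 probe set a gene, 104 relative to the epithelium markers, and 0 without the Control E17 or the DES E17 array. For BPA minus Control the count ran from 0 to 34, the highest with deposited values. The labels give no replicate numbers; without age as the replicate block (agents) or without agent (ages) the member count was 0. Signals near the pseudocount, such as the 3 untested probe sets, carry no order.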
